A study of Mus musculus with 5 samples.

Results

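The CpG-poorest 100 kb windows of the mouse autosomes were examined for DNA methylation in leukemic blasts with and without *Tet2*. A CpG dyad is a CG together with the CG facing it on the other strand, and the calls of both strands were added. The autosomes were divided into consecutive windows of 100 kb, and 24022 of 24032 windows with a dyad held at least 100 of them. The 2402 windows with the fewest dyads, the lowest 10%, held 104 to 463 dyads each (median 425) and 4.91% of all dyads in these windows. They were compared with the 2402 windows in the middle of the ranking, which held 725 to 833 dyads (median 776). The rule used only dyad number, so that methylation played no part in the choice. The limit fell between windows of equal dyad number, 463. The last 3 inside it were at 57.6%, 64.1% and 88.7% in *Tet2*+/+ library 23, and the first 3 outside it at 64.7%, 57.6% and 74.6%.

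Most of the mouse genome has lost CpG dyads, because methylated cytosine mutates readily to thymine, and gene deserts are among the regions where few remain. Such late-replicating, lamina-bound stretches often form partially methylated domains in dividing and cancer cells, since maintenance methylation there lags behind replication. Isolated CpGs with A or T on both sides are known as the dyads that lose methylation first in such domains. TET2 is a dioxygenase that oxidises methylated cytosine and thereby promotes demethylation, mostly studied at enhancers.

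Whole-genome bisulfite sequencing (WGBS) had been done on sorted acute myeloid leukemia (AML) blasts from bone marrow, of strain C57BL/6 by the labels, 1 library per sample. All 5 libraries carried *Cebpa*-/p30, that is a deleted *Cebpa* allele and an allele encoding only p30, the short isoform of the myeloid transcription factor CEBPA. In 2 of them *Tet2* was intact (*Tet2*+/+, numbers 23 and 24) and in 3 it was deleted (*Tet2*-/-, numbers 5, 7 and 8). By the study's methods, the deletions were made with Mx1-Cre, an interferon-responsive Cre that is also active outside the blood, induced by poly(I:C) in irradiated recipients of donor marrow, from which the leukemic cells were taken. Both genotypes therefore shared the Cre, its induction and the transplantation, and leukemic marrow was collected when the animals were moribund. The blasts had been sorted as live donor cells without markers of T, B and erythroid cells. Age and litter of the animals were not given in the labels, and no batch was named.

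Between the genotyping primers of *Tet2* (chr3:133466391-133468261, GRCm38), 34 dyads had 121 and 150 calls in the *Tet2*+/+ libraries and 0 in each *Tet2*-/- library, as labelled. The autosomes were covered by 3.0 to 5.27 calls per dyad in the 5 libraries. Of mitochondrial calls, taken as a gauge of incomplete conversion, 0.807% to 0.989% were methylated. Promoters of 5 of 6 myeloid markers were under 50% methylated in every library, as were 3 of 3 erythroid markers, and 3 of 4 lymphoid marker promoters were over 50%, though methylation is not expression. In such bulk samples, a change in cell makeup and a change of methylation within cells cannot be told apart.

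To show what these windows look like at the level of single dyads, sequences were taken from their longest unbroken run, 16 consecutive windows at chr15:69200001-70800000 that overlapped no protein-coding gene. For each class of dyad used below, the example is the dyad nearest to the centre of the run with at least 4 calls in every library, shown within 120 bases of the plus strand of GRCm38 (RefSeq). Capitals mark every CG, and the CG after the first 59 bases is the example. They were chosen after the levels by class had been seen.
Isolated, A or T on both sides (chr15:69996328-69996447): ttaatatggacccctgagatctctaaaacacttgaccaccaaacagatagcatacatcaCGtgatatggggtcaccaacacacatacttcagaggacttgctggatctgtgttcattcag
Isolated, mixed (chr15:69995778-69995897): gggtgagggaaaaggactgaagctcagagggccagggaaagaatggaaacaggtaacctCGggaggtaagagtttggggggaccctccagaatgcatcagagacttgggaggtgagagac
Isolated, C or G on both sides (chr15:70000383-70000502): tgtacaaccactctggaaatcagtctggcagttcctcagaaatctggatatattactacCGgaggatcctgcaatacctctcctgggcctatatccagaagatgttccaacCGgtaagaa
With a neighbour (chr15:70003197-70003316): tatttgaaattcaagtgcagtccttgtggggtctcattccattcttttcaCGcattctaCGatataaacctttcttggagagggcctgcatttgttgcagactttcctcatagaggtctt

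In the first stretch the only CG lay 123 bp from the next dyad, and 13 of 40 calls over the 5 libraries were methylated (32.5%, 95% Wilson interval 20.1% to 48.0%). In the second, with T before and G after the CG, 13 of 33 calls were methylated (39.4%, 24.7% to 56.3%). In the third, with C before and G after it, 44 of 46 calls were methylated (95.7%, 85.5% to 98.8%). In the fourth, where another CG lay 9 bp away, 29 of 35 calls were methylated (82.9%, 67.3% to 91.9%). These intervals pool the calls of the 5 libraries and cover counting error only, not the spread between libraries. For libraries 23, 24, 5, 7 and 8, methylated over all calls were 1/7, 1/4, 2/12, 8/10 and 1/7 in the first stretch. They were 0/6, 2/6, 3/8, 7/8 and 1/5 in the second, so that library 7 gave most of the methylated calls in both. Single dyads are shown as examples, not as a test.

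The number of dyads, which chose the windows, came to 1 dyad per 236 bp of known sequence in the CpG-poorest windows against 1 per 128 bp in the middle windows. The sequence also differed in base composition and repeats, which the rule did not use. Their median GC content was 37.1% against 41.3%, and 41.1% of their bases were soft-masked repeats against 31.1%. In 70 of the 2402, among them all 20 with the fewest dyads, over 5% of bases were unknown (assembly gaps). The 3 windows with the fewest dyads, chr14:41800001-41900000 (104), chr2:182000001-182100000 (109) and chr12:120000001-120100000 (109), had only 19.1, 13.2 and 29.0 kb of known sequence. A ranking by dyads per known base kept 2344 of the 2402 windows.

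The label of gene desert held for many of these windows but not for all. No protein-coding gene overlapped 70.1% of them, against 34.9% of the middle windows and 35.2% of all windows. No annotated gene of any kind overlapped 36.3%, against 9.91% and 13.8%. A protein-coding 5′ end lay in 12.1%, against 36.6% and 42.0%. Those without a protein-coding gene lay a median of 464 kb and at most 2213 kb from the nearest. They formed 1342 runs, of which 834 were single windows and 70 were runs of 5 or more, and these 70 held 464 windows.

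The methylation level, methylated calls over all calls summed over windows, was lower in the CpG-poorest than in the middle windows of each library. For the CpG-poorest windows, *Tet2*+/+ libraries 23 and 24 were at 64.1% and 57.1%, and *Tet2*-/- libraries 5, 7 and 8 at 66.8%, 71.8% and 62.2%. For the middle windows the values, in the same order, were 70.6% and 65.5%, then 74.0%, 77.9% and 70.3%. The CpG-poorest windows were lower by 7.29 ± 1.03 percentage points (SD, n = 5 libraries), and lower in 5 of 5 libraries. The exact sign-flip test, two-sided, gave p = 0.063, which is the smallest p that 5 libraries allow.

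Between genotypes, the CpG-poorest windows averaged 60.6% ± 4.98 (SD, n = 2) over the *Tet2*+/+ libraries, against 66.9% ± 4.80 (SD, n = 3) over the *Tet2*-/- libraries. The difference of 6.28 points was no larger than the range within *Tet2*+/+ (7.05 points) or within *Tet2*-/- (9.60 points). The groups overlapped, since *Tet2*-/- library 8 (62.2%) lay below *Tet2*+/+ library 23 (64.1%), and an exact permutation test, two-sided, gave p = 0.3, where 0.1 is the smallest possible. Leaving out library 24 gave a difference of 2.75 points, and leaving out library 23 gave 9.80 points. In the middle windows it was 6.01 points, with an exact permutation p of 0.3. The 2 differences differed by 0.263 points (exact permutation p = 0.7), less than the range of 2.32 points over the 5 libraries of the quantity tested, and this value changed sign without library 24, without library 7, on a log-odds scale and outside genes.

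All windows were also divided into deciles by dyad number. Library 8 lay below library 23 by much the same amount in the CpG-poorest, the second and the third deciles. Library 8 lay below library 23 in the 5 CpG-poorer deciles and above it in the 5 CpG-richer ones. In the CpG-poorest decile the values were 62.2% and 64.1%, in the second 64.8% and 66.6%, and in the third 66.6% and 68.4%. They were 69.6% and 70.4% in the fifth, 70.5% and 70.3% in the sixth, and 65.9% and 62.6% in the CpG-richest decile. The range within *Tet2*+/+ was 7.05 points in the CpG-poorest decile and 4.41 in the richest, and within *Tet2*-/- it was 9.60 and 4.23 points. The difference between group means ranged from 5.92 to 7.21 points over the deciles. Over all windows the genotype groups did not overlap (library 8, 68.4%, against library 23, 67.3%), with a difference of 6.59 points and an exact permutation p of 0.2.

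**Figure D1:**
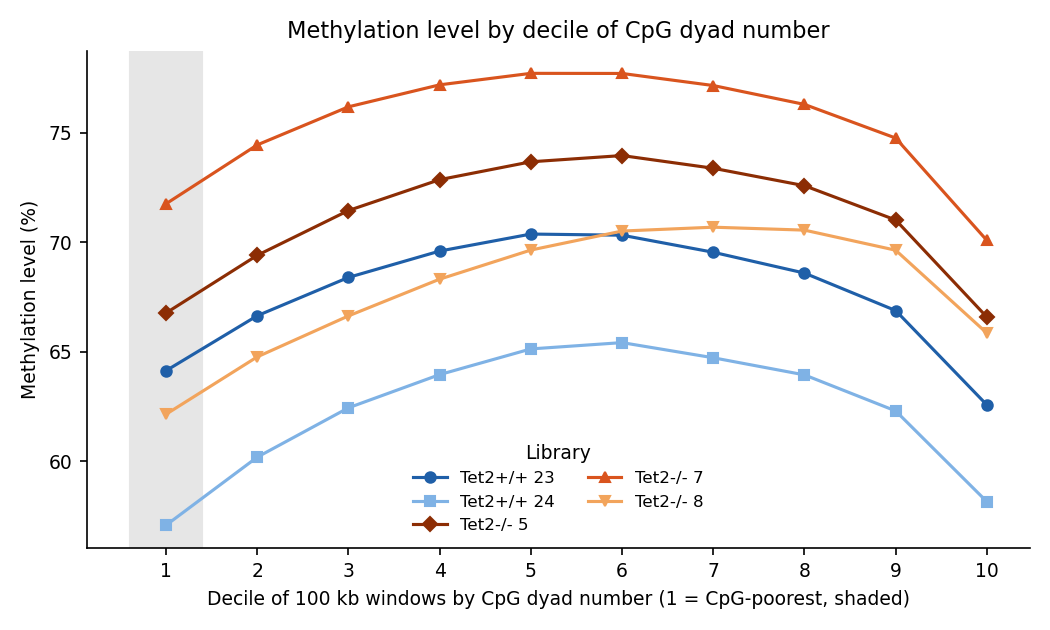
Methylation level (%) of each library by decile of 100 kb windows in order of CpG dyad number, 1 point per library and decile, with the CpG-poorest decile shaded. Levels rise from the CpG-poorest decile to the fifth and sixth and are lower again in the richest, and the line of *Tet2*-/- library 8 lies below that of *Tet2*+/+ library 23 up to the fifth decile and above it from the sixth.

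Single windows showed the same order of libraries. Of the 2402 windows, 2397 had at least 20 calls in every library and 5 did not. At the median depth of 938 to 1624 calls per window, the 95% Wilson interval of a level was 2.30 to 3.12 points wide on each side. Library 24 was the lowest of the 5 libraries in 2036 of 2397 windows (84.9%), and library 7 the highest in 2239 (93.4%), close to the shares over all windows (87.7% and 91.4%). Library 8 was below library 23 in 1741 (72.6%), against 49.7% of all windows. The correlation of window levels between libraries ranged from 0.734 (libraries 24 and 8) to 0.905 (libraries 23 and 5), as Pearson's r across windows, which share neighbours and base composition.

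Most of the CpG-poorest windows lay close together within a library. The middle 50% of windows spanned 5.14 to 8.24 points in the 5 libraries, against 7.32 to 9.50 points in the middle windows. Medians were 62.5% and 54.0% in *Tet2*+/+, and 64.9%, 69.8% and 60.9% in *Tet2*-/-. Above this main group stood a tail of higher windows, with 62 to 300 of 2397 over 80% depending on the library, against 146 to 914 of 2401 middle windows. In library 24 the SD over windows was 9.15 points, more than the 7.93 points of the middle windows. The counting SD at median depth was 1.17 to 1.59 points, smaller than the spread between windows.

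**Figure D2:**
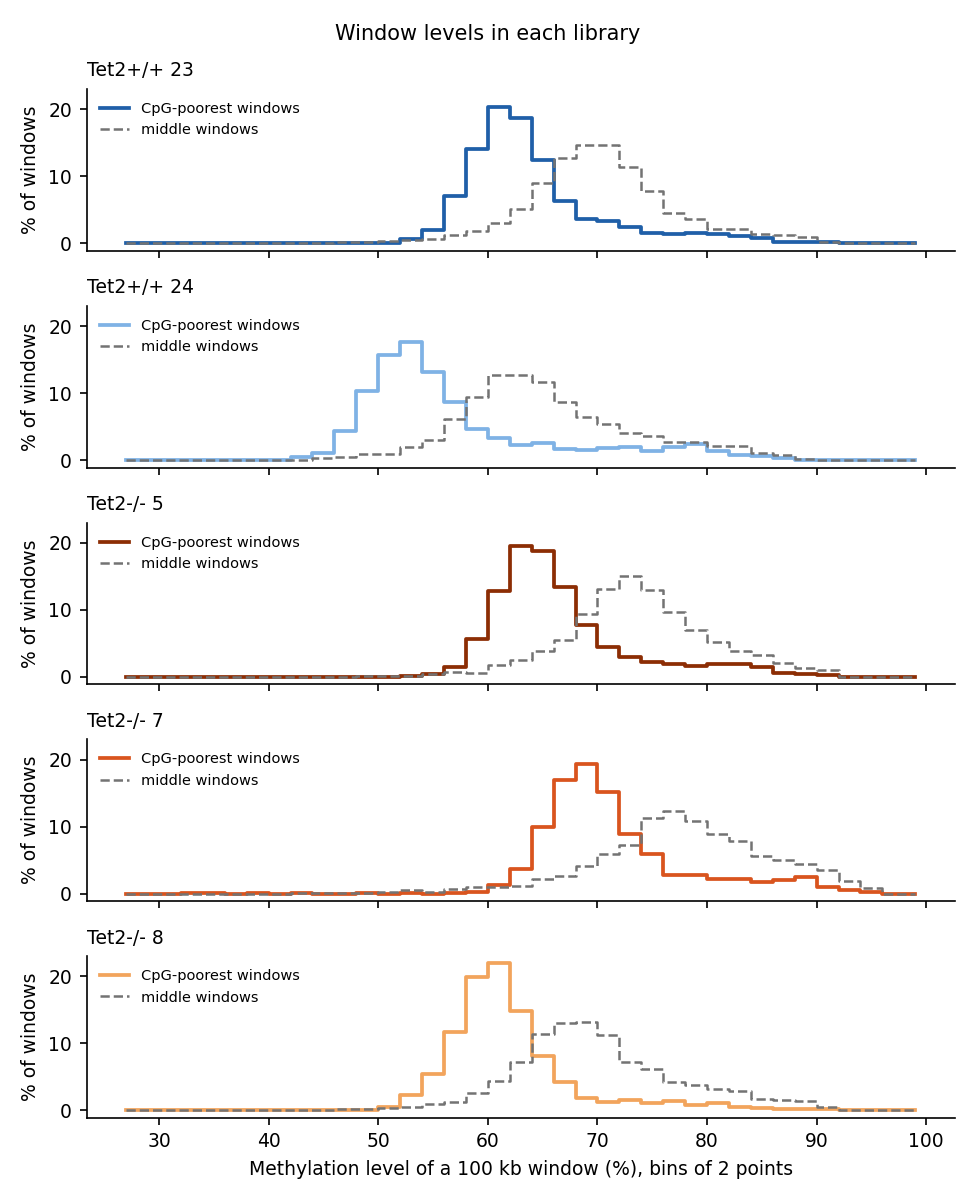
Percent of windows (y axis) at each methylation level in bins of 2 points (x axis), a panel per library, with the CpG-poorest windows as a solid coloured line and the middle windows as a dashed grey line. In each library the CpG-poorest windows peak lower and more narrowly, with a tail toward 80% and above.

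The lower level of these windows was seen at isolated dyads. Isolated dyads, with no other dyad within 35 bp, made up 67.1% of dyads in the CpG-poorest windows and 48.4% in the middle windows. Those with A or T on both sides were 27.0% of dyads against 16.8%. Among these, *Tet2*+/+ libraries 23 and 24 were at 46.2% and 38.5%, and *Tet2*-/- libraries 5, 7 and 8 at 48.9%, 53.2% and 43.4%. In the middle windows the same class was at 59.6% and 53.7%, and 63.7%, 69.1% and 58.7%. The CpG-poorest windows were thus 14.9 ± 0.908 points lower for this class (SD, n = 5), more than for all dyads together.

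The gap between the 2 sets of windows narrowed with the flanking bases and changed sign with a neighbouring dyad. For isolated mixed dyads, with A or T on one side only, the CpG-poorest windows were 8.44 ± 1.06 points lower (SD, n = 5), and for isolated dyads with C or G on both sides 4.24 ± 0.829 points lower. For dyads with a neighbour they were 2.16 ± 1.10 points higher, in 5 of 5 libraries. Each of the 4 classes gave an exact sign-flip p of 0.063, also when adjusted over the 4, and none can be lower.

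**Figure D3:**
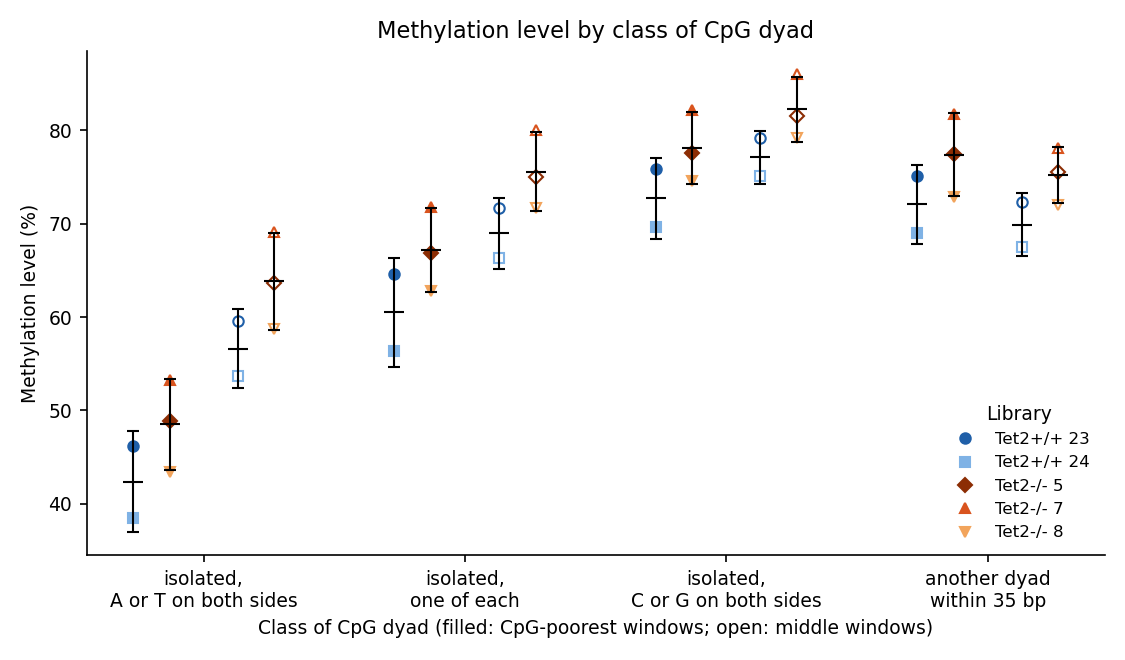
Methylation level (%) by class of CpG dyad, with filled symbols for the CpG-poorest and open symbols for the middle windows, 1 symbol per library, and horizontal bars with whiskers for the mean and SD of each genotype (n = 2 and 3). The CpG-poorest windows lie below the middle ones for the 3 isolated classes, most for A or T on both sides, and above them for dyads with another dyad within 35 bp.

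By genotype, the 4 classes of the CpG-poorest windows differed by 5.33 to 6.68 points, higher in *Tet2*-/- in each class. The differences were 2.31 to 2.55 points without library 24, 3.15 to 4.35 points without library 7 and 8.34 to 10.8 points without library 23. Isolated dyads with A or T on both sides averaged 42.4% ± 5.41 (SD, n = 2 *Tet2*+/+ libraries) against 48.5% ± 4.91 (SD, n = 3 *Tet2*-/- libraries), a difference of 6.15 points. Dyads with a neighbour were at 72.1% ± 4.26 and 77.4% ± 4.43, a difference of 5.33 points. The groups overlapped in all 4 classes, and exact permutation tests gave p = 0.3 for each, also adjusted over the 4.

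At dyads with exactly 5 calls, isolated and with A or T on both sides, methylated and unmethylated calls often occurred together. In the CpG-poorest windows 59.6% to 64.6% of them had both in the 5 libraries, against 51.4% to 62.1% in the middle windows. Among those in the CpG-poorest windows, no call was methylated at 18.2% to 29.9%, most often in library 24. All 5 were methylated at 10.4% to 22.3%, most often in library 7. For dyads with a neighbour, no call was methylated at 2.74% to 6.66% and all were at 32.4% to 54.2%. Both shares were larger in the middle windows of each library, at 8.77% to 12.7% and 36.7% to 59.4%. Fully methylated dyads were thus a smaller share of this class in the CpG-poorest windows, though its mean level was higher.

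Position relative to genes moved the level of these windows by less than the libraries differed. Windows overlapping a protein-coding gene (719) were at 61.9% in *Tet2*+/+ and 68.1% in *Tet2*-/- (group means). Those over 500 kb from any (779) were at 59.6% and 65.9%. The differences between genotypes were 6.18 and 6.23 points, each with overlapping groups (exact permutation p = 0.3). Dyads inside and outside repeats were at 60.4% and 60.7% in *Tet2*+/+, and at 66.4% and 67.2% in *Tet2*-/-.

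Runs of consecutive windows were somewhat lower than single windows. Single windows were at 61.5% in *Tet2*+/+ and 67.8% in *Tet2*-/- (group means), and runs of 5 or more at 59.8% and 65.9%. The longest run, at chr15:69200001-70800000, was above both, at 69.2% and 60.8% in *Tet2*+/+, and 72.5%, 76.9% and 67.9% in *Tet2*-/-. The next, 13 windows at chr6:75100001-76400000 with no protein-coding gene, was at 61.4% and 52.4%, and 64.5%, 68.7% and 60.7%. The third, 12 windows at chr1:122800001-124000000, overlapped *Dpp10*, which encodes an auxiliary subunit of neuronal potassium channels, and was at 60.8% and 51.5%, and 62.5%, 67.3% and 59.4%. In each of these 3 runs library 8 lay below library 23.

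The low level did not stop at the edge of a run. Isolated dyads with A or T on both sides were at 41.0% (*Tet2*+/+) and 47.4% (*Tet2*-/-) in the last window inside a run, and at 43.0% and 48.7% in the first window outside. In the window numbered 10 outward from the edge, they were at 47.9% and 54.2%, with 31.9% of those windows again among the CpG-poorest. The median dyad number was 411 inside and 530 in both the first and the last of these outside windows. It was lower between them, at 473 in the second window and 462.5 in the third. There 47.1% and 50% of windows were again among the CpG-poorest.

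**Figure D4:**
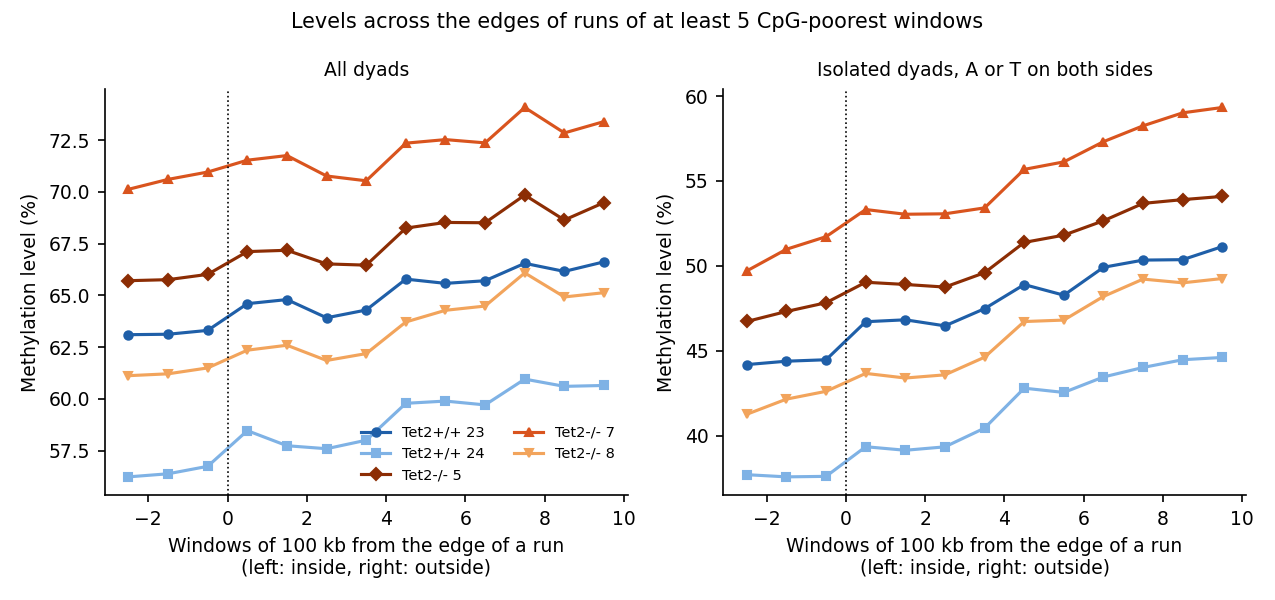
Methylation level (%) in each library by position from the edge of runs of at least 5 CpG-poorest windows, in windows of 100 kb (left of the dotted line inside, right outside), for all dyads and for isolated dyads with A or T on both sides. Outside the runs, levels change little over the first 3 windows and are higher in the last. For the isolated dyads they are 43.0% in the first outside window, 42.9% in the third and 47.9% in the last in *Tet2*+/+. In *Tet2*-/- they are 48.7%, 48.5% and 54.2%. The 5 libraries keep the same order at every position drawn.

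The difference had the same sign on every autosome. The number of CpG-poorest windows ranged from 21 on chromosome 19 to 293 on chromosome 1, or 3.60% to 15.2% of a chromosome's windows. The difference between genotypes ranged from 4.86 to 7.53 points over the 19 autosomes, and library 8 lay below library 23 on 19 of 19.

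The genes that overlapped the largest numbers of these windows were very long, and several are known for roles in neurons. Of 20807 protein-coding genes, 917 (4.41%) overlapped at least 1 of them. *Cntnap2*, which encodes a neurexin-like adhesion protein of axons, overlapped 16, *Csmd3*, a large membrane protein with complement-type domains, 10, and *Cntnap5a*, a relative of *Cntnap2*, and *Lrp1b*, a giant lipoprotein receptor, 9 each. *Lingo2* (a leucine-rich repeat protein), *Naaladl2* (a peptidase-like protein), *Nrg3* (a neuregulin, a ligand of ERBB4), *Ptprd* (a receptor phosphatase of synapses) and *Sgcz* (zeta-sarcoglycan) overlapped 8 each, and *Cntnap5b* 7.

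In the windows of 9 of these 10 genes the mean level was higher in *Tet2*-/-, by 1.85 points for *Cntnap5b* to 8.17 points for *Csmd3*. The windows of *Cntnap2* were at 66.1% and 58.6% in *Tet2*+/+, and 69.8%, 73.9% and 63.2% in *Tet2*-/-. Those of *Csmd3* were at 63.4% and 53.1%, and 65.5%, 71.6% and 62.0%. In both genes library 8 lay below library 23, and the groups overlapped. *Sgcz* stood apart, with 68.9% and 76.8% in *Tet2*+/+ and 72.0%, 74.9% and 63.2% in *Tet2*-/-, so that library 24, the lowest in most windows, was the highest there. Exact permutation tests gave p of 0.2 to 0.7 over the 10 genes, before any adjustment.

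A small set of windows was high in library 24. In 80 of 2397 windows (3.34%) library 24 exceeded library 23 by over 5 points. The same count was not made over all windows, so it is not shown to be particular to these. Of the 80, 12 lay on chromosome 10 and 10 each on chromosomes 17 and 18, which held 114, 95 and 73 of the CpG-poorest windows. Among them were windows of *Grik2*, a subunit of kainate-type glutamate receptors. The 6 CpG-poorest windows that overlap *Grik2* were at 64.9% and 69.0% in *Tet2*+/+, and 64.1%, 67.9% and 58.6% in *Tet2*-/-. Library 24 was the highest of the 5 there, but *Grik2* was picked from windows chosen for a high library 24.

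Gene families differed in their share of these windows, and several covered few windows. Of the windows that overlap a gene whose symbol starts with *Cntn* (contactins and contactin-associated proteins), 53 of 98 (54.1%) were among the CpG-poorest, where 10% of all windows are by rule. The share was 24.3% (83 of 342) for *Olfr*, the olfactory receptors, and 18.4% (40 of 217) for *Vmn*, the vomeronasal pheromone receptors. Shares nearer to 10% were 15.4% (2 of 13) for *Lrrtm*, 14.1% (12 of 85) for *Cdh* (cadherins) and 12.5% (11 of 88) for *Gri*. Below 10% were 8.57% (3 of 35) for *Gabr* (mostly GABA receptor subunits) and 6.28% (12 of 191) for *Kcn* (potassium channels). The same held for 6.00% (3 of 50) for *Pcdh* (protocadherins) and 3.42% (13 of 380) for *Zfp* (zinc finger proteins). None of the 55 windows of *Rpl* and 49 of *Rps* (ribosomal proteins) was among them. Nor was any of the 10 of *Hist* (histones) or the 4 of *Slitrk*, an adhesion family of neurons, too few to read a share from. The *Olfr* windows were at 62.3% in *Tet2*+/+ and 68.5% in *Tet2*-/-, and the *Vmn* windows at 62.8% and 67% (group means). These lists and windows were chosen by annotation, and no enrichment was tested.

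A few of the CpG-poorest windows were highly methylated in all animals. In 33 windows (1.37% of the 2402) the level was over 80% in all 5 libraries, and 19 of these 33 (57.6%) overlapped a protein-coding gene, against 29.5% of the others. Among the middle windows 125 (5.20%) were over 80% in all 5 libraries, and 116 of these 125 (92.8%) overlapped a protein-coding gene. The windows chosen in this way by their level are described without a test. *Dock2*, which encodes a Rac activator of blood cells, lay in 2 of them, at 89.9% and 86.9% in *Tet2*+/+, and 91.1%, 94.8% and 91.1% in *Tet2*-/-. Others held *Faf1* (a ubiquitin-binding protein), *Myo9a* (an unconventional myosin) and the genes *Klra7* and *Klra10* (receptors of natural killer cells). The window of *Faf1* was at 90.7% and 89.3%, and 91.5%, 95.4% and 91.5%.

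The test of each window between genotypes called very few of the CpG-poorest. With edgeR's quasi-likelihood test, adjusted by Benjamini-Hochberg over all 23977 windows tested, 6 of 2397 (0.250%) were higher in *Tet2*-/- at adjusted p under 0.05, where 8.76% of all windows were. The same test called 2 (0.0834%) lower, where 0.0209% of all windows were. At an unadjusted p under 0.05 there were 72 (3.0%), where 24.5% of all windows were. The low share was not particular to them: in the next deciles by dyad number, the second and the third, 0.292% each were called higher, against 3.25% in the middle windows and 26.2% in the CpG-richest decile. All *Tet2*-/- libraries lay above both *Tet2*+/+ libraries in 597 windows (24.9%), where 47.8% of all windows did, and below both in 19 (0.793%), where 0.329% did. In the second and the third deciles they lay above both in 25.9% and 25.2%, and below both in 1.17% and 0.542%. The third decile also had 2 windows (0.0833%) called lower by edgeR, and the second had 0.

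The spread between libraries was wider in the CpG-poorest than in the CpG-richest decile. The median difference per window was 6.75 points in both the CpG-poorest and the CpG-richest decile, while the difference of the summed levels was 6.28 and 7.14 points. The median range between the libraries of *Tet2*+/+ was 8.12 and 4.06 points, and of *Tet2*-/- 9.33 and 4.90 points. For *Tet2*-/- it was no wider than in the second and the third deciles (9.42 and 9.50 points), while for *Tet2*+/+ it was 7.37 and 6.83 points there. Median calls per window were 938 to 1624 in the CpG-poorest windows and 2240 to 3856 in the middle windows, and the part of depth in the counts was not tested. Leaving out a library changed the number of calls, both here and over all windows. Without library 23 or 24, 1 *Tet2*+/+ library is left, whose spread is taken from the *Tet2*-/- libraries. Without library 23, 2 of the CpG-poorest windows were called higher by edgeR, 1 of them among the 6 above, where 6.52% of all windows were. Without library 24, 0 were called (0.00417% of all windows) and 3 had an unadjusted p under 0.05, where 5.05% of all windows did. Without library 5 it was 0 (0.705% of all windows), with 21 at an unadjusted p under 0.05, where 13.7% of all windows were. Without library 7 it was also 0 (5.65% of all windows), with 22 at an unadjusted p under 0.05, where 18.4% of all windows were. Without library 8 it was 39, the 6 among them, where 11.5% of all windows were. With limma on the uncorrected log ratios, 12 windows (0.501%) were called higher, where 1.89% of all windows were, a smaller gap than with edgeR. With limma after subtracting each library's median, no window of the 2397 was called, where 0 of all windows were called higher and 0.0125% lower, and 189 (7.88%) had an unadjusted p under 0.05, where 13.6% of all windows did.

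**Figure D5:**
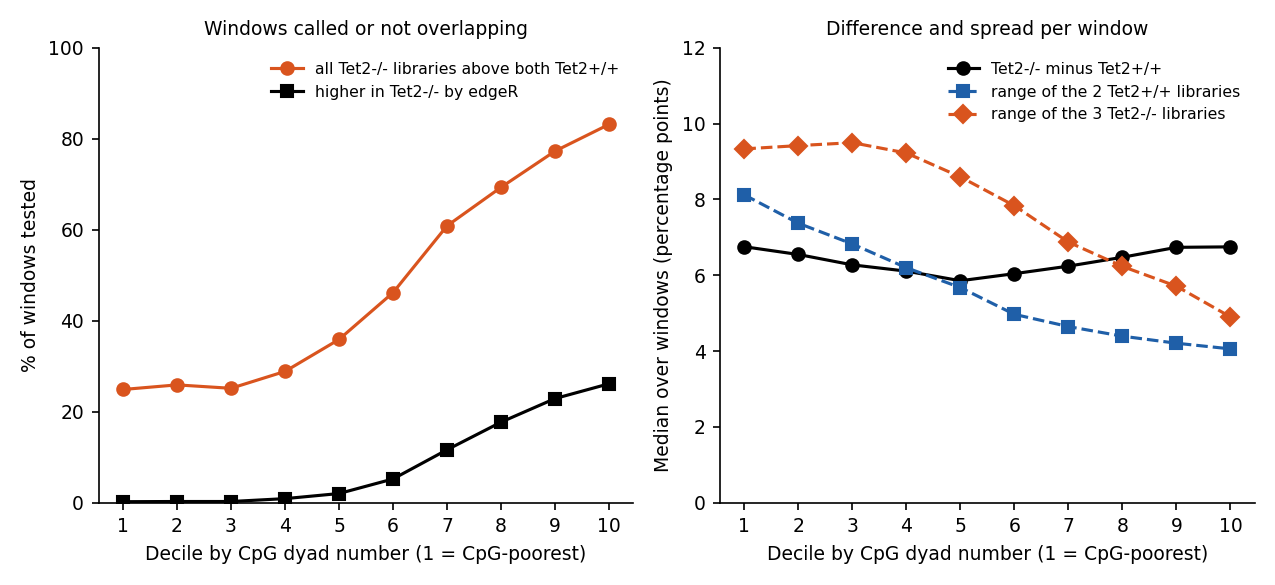
Left, percent of windows tested in which all *Tet2*-/- libraries lay above both *Tet2*+/+ libraries (circles) or which edgeR called higher in *Tet2*-/- (squares), by decile of CpG dyad number. Right, medians over windows, in percentage points, of the difference between group means and of the range within each genotype. Shares are 24.9% and 0.250% in the CpG-poorest decile, much the same in the next 2, and reach 83.2% and 26.2% in the richest. The difference stays near 6 to 7 points, the *Tet2*+/+ range falls from decile to decile, and the *Tet2*-/- range is 9.33 to 9.50 points in the first 3 deciles and falls after them.

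Among the windows called, the 2 with the largest gain in *Tet2*-/- lay side by side in *Grm8*, which encodes a metabotropic glutamate receptor. The first, chr6:27300001-27400000, held 422 dyads and 936 bases of *Grm8* exons, the rest of the overlap being intronic. It was at 63.2% and 52.7% in *Tet2*+/+, and at 73.8%, 88.4% and 64.1% in *Tet2*-/-. Library 8 lay just above library 23, so that the groups were barely separate. The difference was 17.5 points (edgeR adjusted p = 0.0202), and 11.02 points without library 7, the highest. The second, chr6:27400001-27500000, was at 62.4% and 53.8%, and 75.0%, 84.3% and 64.2%, a difference of 16.4 points (edgeR adjusted p = 0.0365). Windows on both sides, with 470 and 572 dyads and thus not among the CpG-poorest, differed by 14.4 and 10.5 points without being called.

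The sequence at the dyad nearest to the centre of the first of these windows lies in an intron of *Grm8*. Its only CG is at the centre, with the next dyad 106 bp away. It is shown because its window has the largest difference among those called (plus strand, GRCm38, RefSeq, capitals mark the CG).
*Grm8* window (chr6:27350088-27350237): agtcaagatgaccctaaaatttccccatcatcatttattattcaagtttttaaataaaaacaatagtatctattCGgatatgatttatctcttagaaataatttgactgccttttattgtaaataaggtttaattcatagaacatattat

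The stretch had a GC content of 24% and 4 calls in all, of which 2 were methylated, both in library 7. A single dyad thus carried next to no information at this depth, and the window's level came from 1048 to 1749 calls per library.

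The other windows called higher lay in gene clusters or at genes of other kinds. The third by size was chr7:145300001-145400000, with *Mrgprd* and *Mrgprf*, receptors related to those of pain-sensing neurons. It had 347 dyads in only 41.5 kb of known sequence, the rest being an assembly gap, with a GC content of 49.3%. Per known base it was denser in dyads than the middle windows (1 per 128 bp). It was thus among the CpG-poorest by dyad number and not by density. Its levels were 73.3% and 63.0%, and 81.1%, 89.8% and 76.2%, a difference of 14.2 points (edgeR adjusted p = 0.0281). The other 3 fell outside the naming rule and are named since the count is small. They were chr7:47900001-48000000 with *Mrgpra4* (14.2 points), chr6:41300001-41400000 with the trypsinogen genes *Try4*, *Try5*, *Try10* and *Prss3* (12.7 points), and chr12:77300001-77400000 with *Fut8*, a fucosyltransferase (10.6 points), with edgeR adjusted p of 0.0487, 0.0485 and 0.0382. In the *Fut8* window the levels were 81.3% and 73.7%, and 84.8%, 92.8% and 86.9%. The gain there was not confined to the CpG-poorest windows. The next *Fut8* window toward higher coordinates, with 565 dyads and not among them, differed by 12.5 points (edgeR adjusted p = 0.00628). The one on the other side, with 752 dyads, differed by 5.72 points and was not called.

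The windows called lower in *Tet2*-/- were high in both *Tet2*+/+ libraries. The first, chr10:49100001-49200000, overlapped *Grik2*, which encodes a kainate-type glutamate receptor subunit. It was at 79.9% and 85.5% in *Tet2*+/+, and at 73.2%, 68.6% and 63.3% in *Tet2*-/-, a difference of -14.3 points (edgeR adjusted p = 0.0367). The next window toward higher coordinates, also in *Grik2* and among the CpG-poorest, was at 72.7% and 78.4%, and 68.2%, 73.5% and 59.3%, and was not called. The second, chr5:12800001-12900000, lay 211 kb from the nearest protein-coding gene, *Sema3d* (an axon guidance protein). It was at 82.3% and 84.9%, and 76.1%, 72.7% and 60.8%, a difference of -13.8 points (edgeR adjusted p = 0.0443). In both, library 24 was the highest of the 5 libraries rather than the lowest. The windows on both sides of the chromosome 5 window differed by -7.79 to -10.6 points without being called.

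The stretches around the central dyads of these 2 windows are shown because their windows were called lower in *Tet2*-/- (plus strand, GRCm38, RefSeq, capitals mark CG). Both hold 3 CGs, unlike the stretch in *Grm8*.
*Grik2* window (chr10:49149927-49150076): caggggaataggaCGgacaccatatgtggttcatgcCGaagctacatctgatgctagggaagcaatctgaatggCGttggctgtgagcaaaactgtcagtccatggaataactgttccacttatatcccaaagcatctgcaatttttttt
*Sema3d* desert window (chr5:12849942-12850091): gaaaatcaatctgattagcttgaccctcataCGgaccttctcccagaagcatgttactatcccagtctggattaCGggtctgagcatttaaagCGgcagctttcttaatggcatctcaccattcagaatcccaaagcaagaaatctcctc

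At the central dyads, 23 of 23 calls over the 5 libraries were methylated in the *Grik2* stretch and 20 of 22 in the chromosome 5 stretch, so that these dyads did not show the difference of their windows. The levels of the 8 called windows had 95% Wilson intervals of 1.16 to 3.36 points on each side. None of the 8 was called when library 24 or library 5 was left out. Without library 23 only the window of chromosome 6 with the smallest adjusted p of the 8 was still called, without library 7 only the lower window of chromosome 5, and without library 8 the 6 higher windows. Without library 5 the gains were still 12.3 to 18.3 points and the losses -16.7 and -16.9 points, with fewer samples in the test. Without library 24 they were 6.82 to 12.3 points, and -11.5 and -12.5 points. Each of the 8 was called with limma without centring.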

How the data were processed

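WGBS libraries of sorted AML blasts from 5 mice were prepared and processed by the authors, who trimmed reads with Trim Galore 0.4.3, aligned them to GRCm38 (mm10) with Bismark 0.19.1 and Bowtie2 in non-directional mode, removed duplicates and checked quality with FastQC 0.11.7. The deposited values are raw counts, for each CpG cytosine, of reads that called it methylated and of reads that called it unmethylated. Bisulfite does not distinguish methylated from hydroxymethylated cytosine. In the CpG-poorest windows 74.1% to 84.5% of dyads had a call, against 82.2% to 89.4% on all autosomes. The part of repeats in this was not tested.

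All 20383623 autosomal dyads matched the GRCm38 reference genome. Genes came from GENCODE M21. The level was the weighted methylation level of the study, and its parametric test was replaced by exact permutation tests over the 10 splits of 5 libraries. Windows with at least 20 calls per library were tested with edgeR 4.0.16 (R 4.3.3), methylated and unmethylated counts with a coefficient per library, and also with limma 3.58.1 (prior of 2 calls). Levels and exact tests were computed with numpy 2.4.6 in Python 3.11.15, and Wilson intervals with scipy 1.17.1. The chromosomes X and Y were not used.

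Named windows were the 3 with the fewest dyads, in each direction the 3 with the largest difference among those called without overlap, and the longest run. Named genes were the 10 that overlap the most windows. The windows and lists were chosen with earlier results of these data known. Each library is 1 labelled sample, and p-values measure the spread between these samples only. PCR reads carry no molecular identifiers, so intervals cover counting error only. Alternatives were other window lengths and offsets, other shares of windows, gap and depth filters, thinning, a log-odds scale, other tests and leaving out each library.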

Additional observations from a re-analysis of the deposited data

How the results depend on the processing

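The genotype difference of the CpG-poorest windows kept its sign in 20 of 20 alternatives, from 2.75 to 9.80 points when a library was left out and from 6.14 to 6.40 points otherwise. The difference between CpG-poorest and middle windows kept its sign in 20 of 20, from -5.82 to -8.30 points. The difference of the 2 genotype differences, 0.263 points, ranged from -0.748 to 1.27 when a library was left out (negative without library 24 or 7, -0.262), and it was -0.0317 on the log2 odds scale and -0.304 points for dyads outside gene bodies. The class, gene and decile levels kept the sign of the genotype difference in 100 of 100 cases with a library left out, at 2.31 to 10.8 points for the 4 dyad classes. Of the CpG-poorest windows, 6 were called higher and 2 lower. The counts were 15 and 4 with edgeR's likelihood ratio test, 12 and 3 with limma, 0 and 0 with limma after median subtraction, 16 and 3 in 50 kb windows (of 4775), 1 and 0 in 200 kb windows (of 1199), and 9 and 0 in windows shifted by 50 kb. Over all windows, the share called higher was 9.42% with the likelihood ratio test, 1.89% with limma, 8.24%, 7.26% and 8.63% in the 3 other window sets, and 8.76% in the report. The counts in the CpG-poorest windows ranged from 0 to 39 and from 0 to 2 with a library left out. In all windows, 2100 calls higher became 1 without library 24 and 169 without library 5. The causes of these changes were not tested, and windows without overlap stayed between 21.5% and 28.5% higher and 0.710% and 0.963% lower under thinning, window length, offset and shared dyads, where 46.9% to 51.0% and 0.308% to 0.504% of all windows did. No paired analysis was possible because the groups share no replicate number. Depth of 2.28 to 3.92 calls per dyad limits statements on single dyads.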
